A study of Arabidopsis thaliana with 12 samples.

Results

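The genes described here were those whose transcript signal was at least 4-fold lower after a 1 h pulse of white light than in darkness, both at night and in the subjective day, in Arabidopsis rosettes. They were chosen by measured values: each array was scaled to a 2% trimmed mean of 100 over the non-control probe sets, the 3 arrays of a group were averaged, means under 20 were set to 20, and probe sets with a control to pulse ratio of at least 4 at each time were kept. Of 22746 probe sets, 71 met this, and 10 of them belong to a list of 12 genes that the rule leaves out, among them AT3G15450. The remaining 61 probe sets are the members. The annotation table used here gave 1 gene for 20 of them and several for 1, and did not list 40, so 20 members are named by gene and the others by probe set.

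Plants kept in the dark run short of sugar, and a set of energy-starvation transcripts, often called dark-inducible or dormancy-associated, becomes abundant in their leaves. The kinase SnRK1 senses low energy and is built from a catalytic alpha subunit with regulatory beta and gamma subunits. Light acts on leaf transcripts through photoreceptors and through the sugar made by photosynthesis, and many leaf transcripts also follow the circadian clock.

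Wild-type seedlings of the Columbia ecotype were 15 days old, had been grown in cycles of 12 h white light and 12 h dark, and were then moved to continuous darkness. All 4 groups share this history. One pair of groups was sampled in the middle of the night and the other in the middle of the subjective day, each with a 1 h white light pulse or with no pulse, and aerial rosettes were hybridized to 3 arrays per group. The labels give CT 6 for the night and CT 18 for the subjective day, the reverse of the usual count from subjective dawn, and groups follow the titles. Night and subjective-day groups may also differ in hours spent in darkness before sampling, which cannot be told apart from time of day here. The labels do not say that the arrays of a group came from separate plants, so the p-values below measure the spread between arrays, which may be technical. In whole rosettes, fewer cells of a type and less RNA per cell cannot be told apart.

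Before normalization the median signal ran from 23.5 to 63.5 per array. The GAPDH 3′ to 5′ signal ratio, a sign of RNA or labelling quality, was 9.29 on day pulse array 1 and 8.75 on day control array 2, against 2.16 to 5.16 on the other 10 arrays. The green tissue genes tested were bright, with group means of 3921 to 7891 for RCA (Rubisco activase), and the root hair genes EXPA7 and EXPA18 reached at most 16.2 and 12.5 on any array, under the lowest mean signal of any probe set tested (21.8, called the floor here). Signals below are quantile normalized over the 12 arrays. A fold against a group mean under the floor was computed against the floor and is written as "at least".

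Across the 61 members the mean signal was from 3.91-fold to at least 22.8-fold lower after the night pulse, with a median of 5.52-fold, and 3.56-fold to 76.1-fold lower after the day pulse, with a median of 8.63-fold. These medians hold lower bounds for the 7 members with a night-pulsed mean under the floor and the 4 with such a day-pulsed mean. On the log2(signal + 2) scale the median change was -2.46 at night and -3.22 in the day, against -0.01 and -0.04 over all 13647 probe sets tested. With signals under the floor raised to it, the members' medians were -2.34 and -3.13. All 61 passed the filter on low values, and none of the control means lay under the floor. By limma with Benjamini-Hochberg adjustment, all 61 were called lower at each time, where 6.82% of all probe sets were called lower at night and 21.8% in the day. The rule fixes these counts, and nothing is read from them. The median log2 signal of the members on single arrays was 8.45 to 8.47 in night controls, 5.63 to 5.79 after the night pulse, 9.68 to 9.97 in day controls and 5.92 to 6.36 after the day pulse. These ranges of the 4 groups did not overlap. The rule sets the gaps between controls and pulsed arrays of the same time, and nothing is read from them. The night-pulsed and day-pulsed ranges lay close together.

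**Figure D1:**
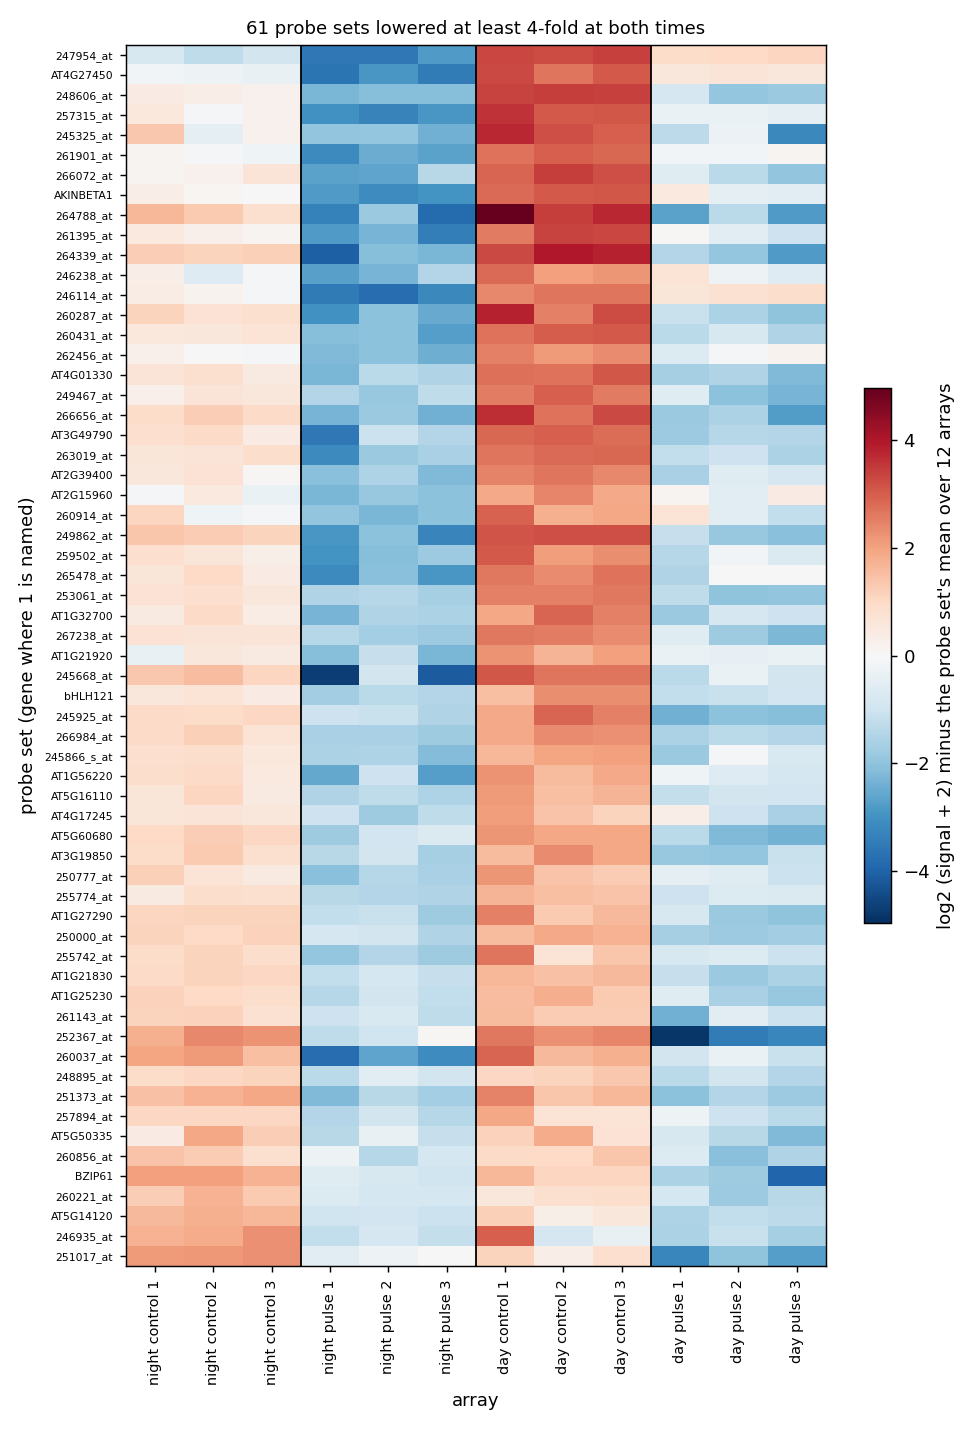
Each line is 1 of the 61 members and each column 1 of the 12 arrays; the colour is log2(signal + 2) minus that probe set's mean over the 12 arrays. Members are ordered by the difference between night and day dark controls, and most are highest in day controls and lowest on pulsed arrays.

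AKINBETA1 (AT5G21170) encodes a beta subunit of SnRK1. Its signal was 718, 609 and 586 on the night control arrays and 79.6, 64.4 and 71.8 after the night pulse, 8.87-fold lower. In the day it was 4034, 4750.3 and 4873 in controls and 792, 421 and 393 after the pulse, 8.50-fold lower. The pulsed arrays lay under all controls of the same time, as for all 61 members. The night controls of AKINBETA1 lay within the range of its day-pulsed arrays. AKINBETA1 was thus lower by similar factors against control levels that differed 7.14-fold (4552 ± 453 in the day and 638 ± 70.3 at night, SD, n = 3). Of the 7 SnRK1 subunit genes on a list drawn up after the members were known, 3 were tested. The other two, AKINBETA2 and AKINBETA3, were not called lower: AKINBETA2 changed by 0.24 ± 0.26 (log2, SE) at night, which was not called, and rose by 0.76 ± 0.26 in the day (adjusted p = 0.0315). AKINBETA3 changed by 0.07 ± 0.21 and 0.34 ± 0.21, called at neither time.

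AT4G27450 belongs to the aluminium-induced-protein-like family, as does the left-out gene AT3G15450. Its arrays read 362, 336 and 311 in night controls and 30.9, 53.3 and 34.6 after the night pulse, 8.50-fold lower. Day controls read 3905, 2551 and 3313 and day-pulsed arrays 589.6, 636 and 604, 5.34-fold lower. All day-pulsed arrays lay above all night controls. AT1G56220, of the dormancy and auxin associated family, had means of 1864 ± 309.6 in night controls and 289 ± 203 after the pulse, and of 4105 ± 949 and 744 ± 176 in the day (SD, n = 3), 6.44-fold and 5.51-fold lower. Its spread after the night pulse came from 1 array at 523, with the others at 182 and 162.

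Members that encode transcription factors or members of such families were BZIP61, bHLH121 and AT1G32700. BZIP61, a bZIP factor, was 203 ± 24.9 in night controls and 28.8 ± 3.9 after the pulse, 7.05-fold lower, and went from a day control mean of 128 ± 33.0 to 10.4 ± 7.78, under the floor and at least 5.90-fold lower. bHLH121, a basic helix-loop-helix factor of the iron-deficiency response, went from 384 ± 36.1 to 90.3 ± 13.3 at night and from 1112 ± 325 to 121 ± 10.9 in the day, 4.26-fold and 9.17-fold lower. AT1G32700, of the PLATZ zinc-binding family, went from 385 ± 86.9 to 73.7 ± 21.0 and from 1405 ± 456 to 110.2 ± 37.7, 5.22-fold and 12.7-fold lower.

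Signalling and turnover families were represented by 3 genes. AT4G01330, of the protein kinase superfamily, read 151, 169 and 132 in night controls and 18.3, 37.4 and 32.8 after the pulse, 5.10-fold lower. In the day it read 663, 646 and 847 in controls and 29.2, 33.5 and 19.9 after the pulse, 26.1-fold lower. The pulsed levels of both times overlapped while the control levels did not. Both pulsed means of AT4G01330 (29.5 at night, 27.5 in the day) lay near the floor of 21.8. Its night pulse array 1 and day pulse array 3 lay under the floor. Whether the overlap comes from this limit was not tested. AT3G19850, of the family of the phototropism protein NPH3, was 5.09-fold lower at night (204 ± 38.1 to 40.1 ± 11.3) and 12.5-fold lower in the day (399 ± 108 to 31.9 ± 11.3). AT4G17245, of the RING-type family that contains many ubiquitin ligases, was 3.91-fold lower at night (159 ± 3.96 to 40.7 ± 10.7) and 4.51-fold lower in the day (322 ± 117 to 71.5 ± 52.8).

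Enzymes and a transporter made up the next group. AT2G39400, an alpha/beta hydrolase, went from 120.1 ± 27.1 to 21.5 ± 6.05 at night, under the floor and at least 5.52-fold lower, and from 503 ± 48.5 to 43.7 ± 15.4 in the day, 11.5-fold lower. AT1G25230, of the metallophosphoesterase superfamily, was 4.56-fold lower at night (673 ± 64.1 to 148 ± 27.8) and 7.08-fold lower in the day (987 ± 179 to 139 ± 70.4). AT5G14120, of the major facilitator family of membrane transporters, read 2256, 2539 and 2306 in night controls and 371, 381 and 351 after the pulse, 6.44-fold lower. Its day controls read 1690.4, 896 and 1082 and its day-pulsed arrays 257, 315 and 299, 4.21-fold lower. It was the one named member called higher in night than in day controls.

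**Figure D2:**
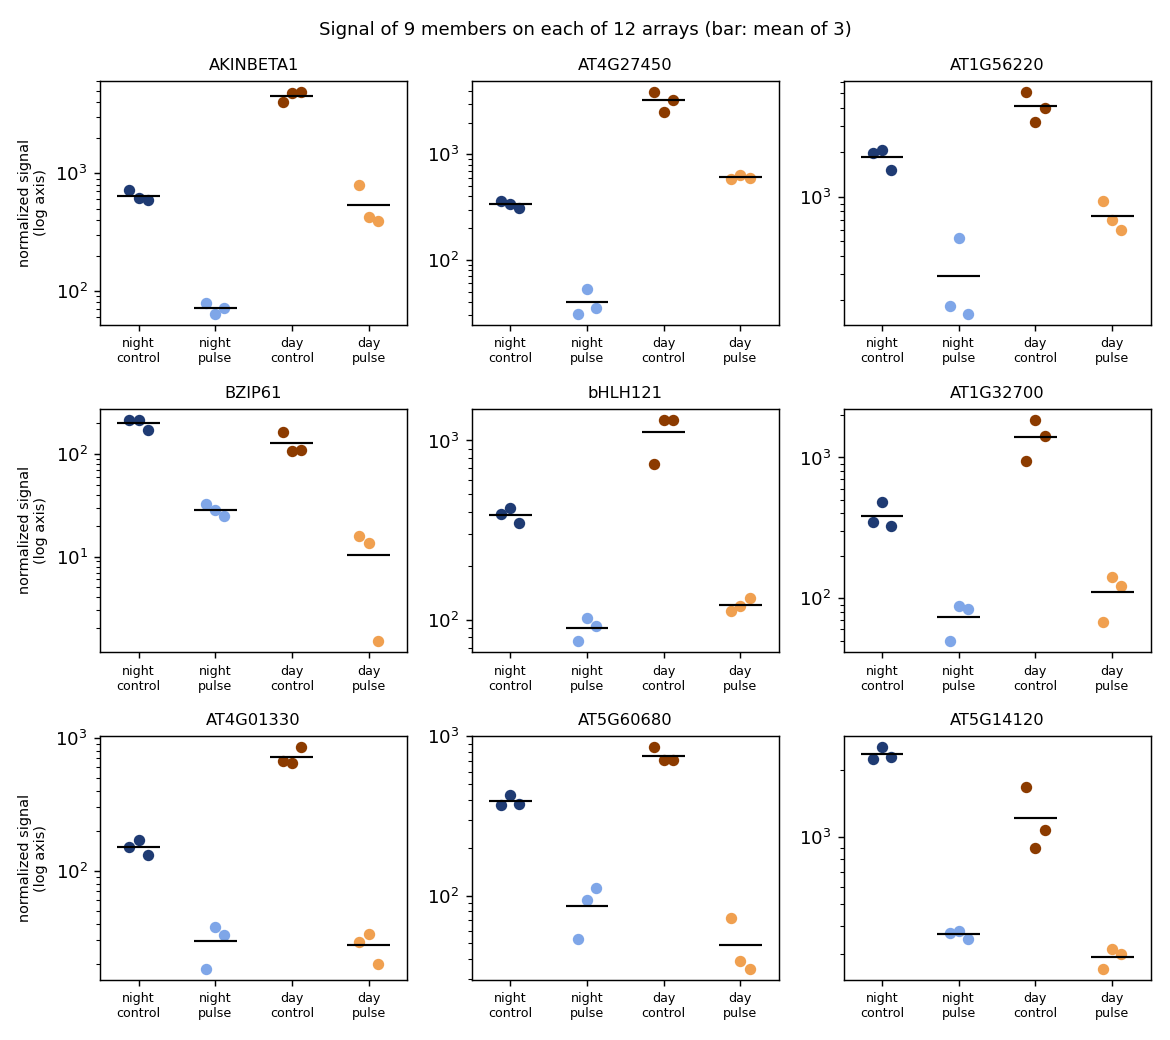
Normalized signal (log axis) of 9 named members on each of the 12 arrays, with a bar at the mean of the 3 arrays of a group. AKINBETA1 and AT4G27450 are lower at night than in the day in darkness and after the pulse. The pulsed arrays of AT4G01330 overlap near the floor, and AT5G14120 is higher in night than in day controls.

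The other named members have no role given here or only a family. AT5G60680, of the DUF584 family, read 371, 431 and 374 in night controls and 53.5, 93.8 and 112 after the pulse, 4.54-fold lower, and 854, 709 and 710.0 in day controls and 72.3, 39.0 and 34.7 after the pulse, 15.6-fold lower. AT2G15960 was 4.33-fold lower at night (832 ± 253 to 192 ± 28.3) and 4.12-fold lower in the day (3412 ± 773 to 828 ± 259.8). AT3G49790 reached pulsed means under the floor at both times, from controls of 113 ± 22.3 at night and 498 ± 35.5 in the day, at least 5.20-fold and at least 22.9-fold lower. AT1G21920, AT1G21830, AT1G27290, AT5G16110 and AT5G50335 were lower by 4.16-fold, 4.37-fold, 5.54-fold, 4.50-fold and 4.87-fold at night and by 5.17-fold, 8.63-fold, 10.4-fold, 6.98-fold and 6.85-fold in the day, in that order.

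The 20 named loci were spread over the genome, with 6 on chromosome 1, 2 on chromosome 2, 4 on chromosome 3, 3 on chromosome 4 and 5 on chromosome 5. Among protein-coding genes of the TAIR10.1 annotation, 1 pair of members was adjacent, AT3G19850 and bHLH121, and the loci do not overlap. Promoter sequences were not analysed here.

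The 8 members with the largest ratios, ranked by the smaller of the night and day ratios of the rule, were probe sets without a gene in the table used. The probe set 249862_at read 1426, 1307 and 1198 in night controls and 72.2, 134 and 54.8 after the pulse, 15.1-fold lower, and 4785, 5075 and 5040.1 in day controls and 246, 149 and 129.7 after the pulse, 28.4-fold lower. For 264339_at the arrays read 398, 369 and 389 against 8.21, 37.2 and 33.5 at night, 14.7-fold lower, and 1652, 2659 and 2438 against 60.9, 43.3 and 22.4 in the day, 53.3-fold lower. On both probe sets all pulsed arrays lay under all controls of their time, as they did for all 61 members. Over all probe sets tested, 19.6% did so at night and 25.3% in the day. The rule chose members by these values, so nothing is read from this. The signals of 245668_at were 524, 600.5 and 441 against 6.20, 111 and 9.90 at night, 12.3-fold lower with 1 pulsed array far above the others, and 1776, 1322 and 1326 against 80.2, 166 and 110.0 in the day, 12.4-fold lower. Those of 251373_at were 359, 436 and 496 against 26.7, 49.2 and 39.4 at night, 11.2-fold lower, and 733, 338 and 410.4 against 29.9, 46.4 and 35.8 in the day, 13.2-fold lower. Night and day levels of 251373_at overlapped both in darkness and after the pulse.

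Signals of 260287_at were 452, 348 and 370.5 against 24.3, 50.2 and 36.0 at night, 10.6-fold lower, and 3009, 1211 and 2019 against 97.4, 69.7 and 51.0 in the day, 28.6-fold lower. Those of 257315_at were 527, 349 and 431 against 44.1, 35.4 and 48.7 at night, 10.2-fold lower, and 4445, 3104 and 3175 against 292, 290.2 and 260.2 in the day, 12.7-fold lower. Both lay higher in the day than at night on every array of the same treatment. The 266656_at arrays read 269, 329.9 and 274 against 26.9, 37.8 and 25.8 at night, 9.64-fold lower, and 1839, 933 and 1385 against 37.8, 46.3 and 18.8 in the day, 40.4-fold lower. The 261395_at arrays read 299, 259 and 235 against 28.6, 41.5 and 17.9 at night, 9.01-fold lower, and 1283, 2224 and 2129 against 225, 144 and 103 in the day, 11.9-fold lower. For 266656_at the pulsed arrays of night and day overlapped, and for 261395_at they did not.

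At the limit of the rule, on its own scale, the smaller ratio was 4.07 for 246114_at, 4.05 for AT4G17245 and 4.03 for 248895_at, just inside, and 3.99 for 248302_at, 3.92 for AT5G08520 and 3.92 for 266513_at, just outside. Membership moved with single arrays: 39 of the 61 stayed in all 12 runs that left out 1 array. The number of members ran from 55, without night control 2 or without day control 1, to 67 without night control 3. The day fall of 246935_at came largely from day control 1, with controls of 1051, 72.2 and 100.1 against pulsed arrays of 43.2, 59.6 and 40.1.

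The order of night and day levels is not set by the rule and was tested. The same group means chose the members, however, and the probe sets given for comparison did not have to meet the rule. In the dark controls 43 members were lower at night than in the subjective day, 3 were higher and 15 were not called, where 22.6% of all probe sets were called lower and 25.7% higher by limma. The median difference, night minus day, was -1.76 (log2, range -4.29 to 1.44), against 0.02 over all probe sets tested. The control arrays of night and day did not overlap for 48 members that were lower at night and for 4 that were higher, where 29.4% and 31% of all probe sets did so. Among the 20 named members 14 were lower at night, 1 was higher and 5 were not called. Of the 4 green tissue genes tested, RCA and SBPASE, a Calvin cycle enzyme gene, went the other way and were higher in night controls by 1.02 ± 0.19 and 1.53 ± 0.15, and LHCB4.1 and LHCB4.2 were not called. The part of tissue makeup in the members' difference was not tested.

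The widest gap was that of 247954_at, which read 318, 227 and 288 in night controls and 5415, 5138 and 5723 in day controls, 19.5-fold apart (log2 difference -4.29 ± 0.20, SE, adjusted p = 6.94e-09 by limma). AT4G27450 followed at -3.25 ± 0.21 (adjusted p = 9.15e-08), 9.67-fold lower at night. Next were 248606_at, with 315, 301 and 276 at night and 2453, 2621 and 2533 in the day (-3.09 ± 0.24, adjusted p = 4.35e-07), and 257315_at (-3.03 ± 0.20, adjusted p = 1.11e-07). AKINBETA1 differed by -2.83 ± 0.23 (adjusted p = 7.42e-07), behind 245325_at (-2.94), 261901_at (-2.88) and 266072_at (-2.85), which were outside the rule for named genes and are named after their values were seen. All night control arrays of AKINBETA1 and of the first 4 lay under all their day control arrays. AT4G01330 (-2.24 ± 0.26), AT3G49790 (-2.13 ± 0.47), AT2G39400 (-2.07 ± 0.28), AT2G15960 (-2.05 ± 0.27), AT1G32700 (-1.83 ± 0.32), AT1G21920 (-1.76 ± 0.30) and bHLH121 (-1.48 ± 0.22) were lower at night as well, with adjusted p from 1.56e-05 for AT4G01330 to 0.00222 for AT3G49790.

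Smaller differences were called for AT1G56220 (-1.13 ± 0.36, adjusted p = 0.019), AT5G16110 (-1.05 ± 0.21, adjusted p = 0.000918), AT5G60680 (-0.94 ± 0.29, adjusted p = 0.0152), AT3G19850 (-0.94 ± 0.28, adjusted p = 0.0133) and AT1G21830 (-0.56 ± 0.19, adjusted p = 0.0292). The call of AT1G56220 was lost without night control 3 (adjusted p = 0.0729) or day control 1 (0.0668), and that of AT3G19850 without night control 3 (0.0545) or day control 2 (0.0648). AT1G21830 lost its call without any one of night controls 1, 2 and 3 or day controls 1 and 3 (adjusted p 0.0543 to 0.0867). AT5G50335 (-0.04 ± 0.45), BZIP61 (0.68 ± 0.47), AT1G25230 (-0.54 ± 0.28), AT1G27290 (-0.72 ± 0.34) and AT4G17245 (-0.95 ± 0.40) were not called. Of these, AT1G25230 was called without day pulse 1 (adjusted p = 0.0245), AT1G27290 without day pulse 1 (0.0361) or day control 2 (0.0454), AT4G17245 without day pulse 1 (0.00891) or day pulse 3 (0.0357), and BZIP61 without day pulse 3 (0.0259).

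The 3 members higher in night controls were 251017_at, AT5G14120 and 260221_at. The first read 437, 459 and 492 at night and 217, 125 and 180.3 in the day, a difference of 1.44 ± 0.30 (adjusted p = 0.00132). AT5G14120 differed by 1.00 ± 0.20 (adjusted p = 0.00111), with all night controls above all day controls. The third, 260221_at, read 2032, 2828 and 2151 at night and 1256, 1510.2 and 1570.1 in the day, a difference of 0.68 ± 0.22 (adjusted p = 0.0192). With each array centred on its median instead of quantile normalization, 1 member was called higher at night, and AT5G14120 was no longer called (adjusted p = 0.0761).

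**Figure D3:**
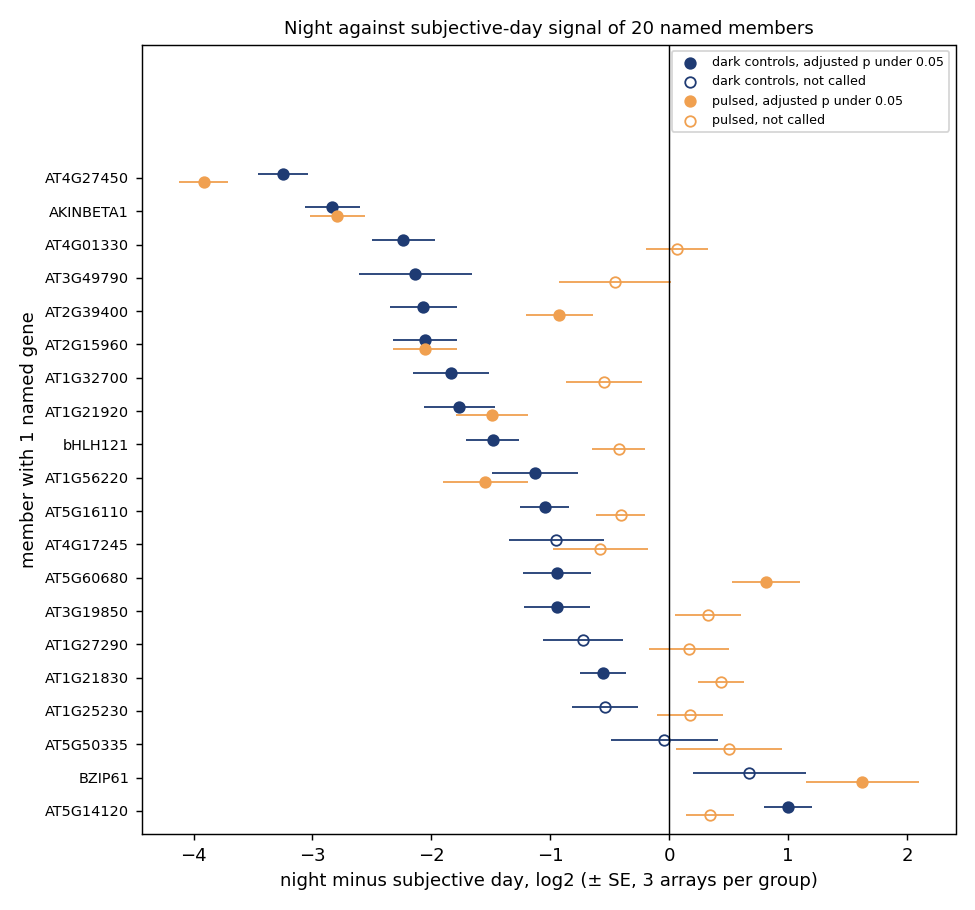
Night minus subjective-day difference (log2, ± SE, 3 arrays per group) of the 20 named members in dark controls and after the pulse; filled points have an adjusted p under 0.05 by limma. AT4G27450, AKINBETA1 and AT2G15960 lie far below 0 in both, whereas AT4G01330 and AT3G49790 lie far below 0 in controls and were not called after the pulse. BZIP61 in the day, AT2G39400 at night and AT3G49790 at both times have pulsed means under the floor.

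Night and day levels were also compared after the pulse, with the same limit from the choice of members. Of the 61 members, 24 were lower in night-pulsed than in day-pulsed rosettes, 6 were higher and 31 were not called, where 16.1% of all probe sets were called lower and 18.8% higher by limma. The median difference was -0.58 (log2, range -4.29 to 3.13), against -0.03 over all probe sets tested, and the members' median was -0.55 with dim signals raised to the floor. Over the 52 members whose pulsed means both lay above the floor, 21 were lower at night, 4 higher and 27 not called. The number called higher at night was 12 without day pulse 1, the array with the highest GAPDH ratio, and ran from 4 to 12 over the 12 runs that left out 1 array.

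Of the 43 members lower in night controls, 22 were also lower at night after the pulse, 18 were not called after it and 3 were higher at night after it. Over all 3091 probe sets lower in night controls the shares were 43.5%, 55.4% and 1.1%.

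The widest night against day difference after the pulse was that of 247954_at, with 45.0, 45.0 and 75.3 after the night pulse and 1018, 1102 and 1138 after the day pulse, a difference of -4.29 ± 0.20 (adjusted p = 2.65e-08), as large as in its controls. The probe set 246114_at read 134, 111 and 169 after the night pulse and 2363, 2659 and 2882 after the day pulse (-4.25 ± 0.18, adjusted p = 1.74e-08). In its controls it read 1998, 1778 and 1486 at night and 8251, 9940.2 and 9940.2 in the day, the repeated value being that of 1 rank in the quantile normalization. AT4G27450 differed by -3.92 ± 0.21 (adjusted p = 7.13e-08), AKINBETA1 by -2.79 ± 0.23 (adjusted p = 2.52e-06) and AT2G15960 by -2.05 ± 0.27 (adjusted p = 8.27e-05). AT1G56220 (-1.54 ± 0.36, adjusted p = 0.00476) and AT1G21920 (-1.49 ± 0.30, adjusted p = 0.00196) were lower at night too.

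Members higher after the night pulse included 252367_at, which read 183, 219 and 458 at night and 13.4, 37.2 and 43.9 in the day (3.13 ± 0.39, adjusted p = 5.66e-05), with controls that were not called different. The probe set 245925_at read 88.8, 84.8 and 65.3 after the night pulse and 33.5, 43.9 and 41.6 after the day pulse (0.97 ± 0.24, adjusted p = 0.00631). Its controls were ordered the other way, with 361, 352 and 376 at night and 691, 1406 and 1052 in the day (-1.47 ± 0.24, adjusted p = 0.000195). AT5G60680 was lower in night than in day controls and higher after the night pulse (0.81 ± 0.29, adjusted p = 0.0429), with overlapping pulsed arrays, and this call was lost when any one of 9 of the 12 arrays was left out (adjusted p 0.0505 to 0.171). Pulsed levels were not called different for AT4G01330 (0.07 ± 0.26), AT1G27290 (0.17 ± 0.34), AT1G25230 (0.17 ± 0.28), AT3G19850 (0.33 ± 0.28), AT5G14120 (0.34 ± 0.20), AT5G16110 (-0.41 ± 0.21), AT1G21830 (0.43 ± 0.19), bHLH121 (-0.43 ± 0.22), AT5G50335 (0.50 ± 0.45), AT1G32700 (-0.55 ± 0.32) and AT4G17245 (-0.58 ± 0.40). Without day pulse 1 AT1G21830 (adjusted p = 0.0114), AT1G25230 (0.0465) and AT1G32700 (0.0389) were called. BZIP61, AT2G39400 and AT3G49790 had a pulsed mean under the floor in at least 1 group and are given no order.

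The sizes of the night and day falls chose the members, so their difference is given as a description. It was computed as the night change minus the day change, so a positive value is a larger fall in the day. The median over the 61 members was 0.64 (range -2.16 to 3.46), or 0.56 (range -1.83 to 3.26) with dim signals raised to the floor, against 0.03 over all probe sets tested, with 47 members above 0 and 14 below. The interaction term was called for 15 members in the positive direction and 2 in the negative one, where 5.2% and 7.47% of all probe sets were called, and nothing is read from these counts. The fall of 252367_at was 6.72-fold at night and 76.1-fold in the day, a difference of 3.46 ± 0.55. That of 248606_at was 5.78-fold at night and 29.4-fold in the day (2.45 ± 0.33): its pulsed arrays read 47.8, 53.6 and 53.0 at night and 132, 62.4 and 64.8 in the day. For 245925_at it was 4.56-fold and 26.5-fold (2.43 ± 0.33). The 4 named members among the 15 called were AT4G01330 (2.30 ± 0.37), AT5G60680 (1.76 ± 0.41), bHLH121 (1.06 ± 0.31) and AT1G21830 (0.99 ± 0.27).

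Larger falls at night were called for 260037_at and 246114_at. The first read 520.0, 585 and 383 in night controls and 7.75, 20.04 and 13.6 after the night pulse, at least 22.8-fold lower, and 1003, 411 and 460.2 in day controls and 70.1, 104 and 61.3 after the day pulse, 7.96-fold lower. Its fitted difference of -2.16 ± 0.51 rests on a night-pulsed mean under the floor, and with dim signals raised to the floor it was -1.49 ± 0.43. The second was 12.7-fold lower at night and 3.56-fold lower in the day (-1.83 ± 0.25). The falls of AT2G15960 (0.00 ± 0.38 in size), AKINBETA1 (0.04 ± 0.33) and 247954_at were close to equal on the log2 scale, which does not show that they are the same.

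**Figure D4:**
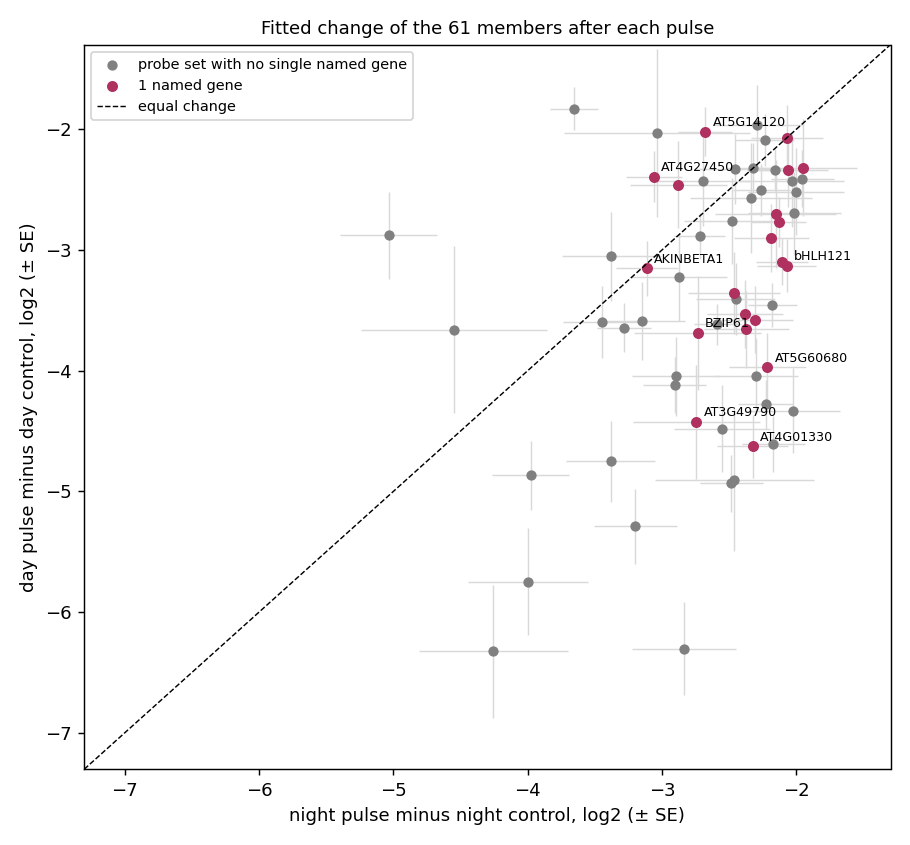
Fitted change (log2, ± SE, 3 arrays per group) after the day pulse against that after the night pulse for the 61 members; the dashed line marks equal change. Points below the line, 47 of 61, had a larger fitted fall in the day, and the rule keeps all points away from 0 on both axes. The difference was called for 15 of them by limma, where 5.2% of all probe sets were called in that direction. The falls chose the members, so nothing is read from this count.

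Other genes of the pathways named above were read from lists drawn from general knowledge. Of 27 genes of dark and sugar starvation, 3 were tested: AKINBETA1, the left-out AT3G15450 and ATL8, a RING-type protein gene. After the night pulse 2 of them fell and after the day pulse all 3 did, and all 3 were lower in night than in day controls. Over all probe sets tested, 6.82% were called lower after the night pulse, 21.8% after the day pulse and 22.6% in night controls. AKINBETA1 and AT3G15450 met the fold rule, which fixes their falls at both times, so only the falls of ATL8 were free to differ. ATL8 fell by 4.47 ± 0.37 (log2, adjusted p = 7.28e-07) in the day and changed by -0.87 ± 0.37 at night (adjusted p = 0.161). Of 25 clock genes 5 were tested and none is a member, but COR27 is on the list that the rule leaves out. At night 1 of the 5 rose and 1 fell, and in the day 2 rose and 3 fell. COR27 was the one that fell at night (-2.64 ± 0.31), and it fell in the day as well (-2.60 ± 0.31). Of 20 shade and PIF genes 3 had a named probe set and 1 was tested, HAT2, a homeodomain factor gene. It fell by 1.99 ± 0.27 in the day (adjusted p = 5.57e-05) and was not called at night (-0.47 ± 0.27). None of 9 leaf senescence genes had a named probe set. Of the 4 green tissue genes none was called after the night pulse and 3 rose after the day pulse.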

How the data were processed

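Total RNA from aerial rosettes was measured on 12 ATH1 arrays. The deposited table holds 1 linear intensity per probe set and array. The submitters' processing notes name MAS5 and no version or setting of it. The arrays had not been brought to a common level, with trimmed means of 65.9 to 176.5. Gene names came from the platform annotation, checked by identifier against TAIR10.1.

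Of 22810 probe sets, 64 control probe sets were left out. To the intensities 2 was added, log2 was taken, and the log2 values were quantile normalized. Probe sets with a mean above the 40th percentile (13647 of 22746) were fitted with limma 3.58.1 in R 4.3.3 (lmFit, eBayes with trend, 4 groups of 3 arrays, 8 residual degrees of freedom), with Benjamini-Hochberg adjustment over all probe sets tested and a threshold of 0.05. The procedure was tested on simulated data. With 3 arrays per group, their number limits the precision.

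The members and gene lists were chosen with earlier results of these data known. All members with 1 gene are named, with values on single arrays for the 8 largest by the smaller ratio, for the largest night against day differences in each direction (up to 4 in controls, 3 after the pulse, 3 between the falls, among those called) and for listed genes. Other named members are given by means, and single-array values of some were added after they were seen. The main fit did not pair arrays by replicate number. Of 18 same-number pairs across groups 8 had a correlation of deviations over 0.1 (range -0.108 to 0.446). Pairs of unlike number were not compared, so whether replicate numbers pair the arrays was not settled. Alternatives varied the normalization, pseudocount, filter, array weights, samples fitted, replicate block and the arrays left out.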

Additional observations from a re-analysis of the deposited data

Results flagged for a closer look

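The fitted falls at night and in the subjective day differed for 17 members by limma's interaction term (Benjamini-Hochberg adjusted p under 0.05, 3 arrays per group). Over all probe sets tested 12.7% were called in either direction, and nothing is read from the count. The falls themselves chose these members, so the values are a description. Night change minus day change on the log2 scale was -2.16 for 260037_at and -1.83 for 246114_at, the 2 with a larger fall at night. For 260037_at the night-pulsed mean was under the floor, and the value with dim signals raised to the floor was -1.49. It was 3.46 for 252367_at, 2.45 for 248606_at, 2.43 for 245925_at, 2.31 for 249467_at, 2.30 for AT4G01330, 2.09 for 266656_at, 2.05 for 253061_at, 1.93 for 266072_at, 1.76 for AT5G60680, 1.74 for 267238_at, 1.28 for 250000_at, 1.21 for 260431_at (1.43 with its night-pulsed signals, also under the floor on average, raised to it), 1.06 for bHLH121, 1.03 for 266984_at and 0.99 for AT1G21830, all with a larger fall in the day. The difference for AT1G21830 was not called when any one of 8 of the 12 arrays was left out (adjusted p 0.0584 to 0.073), and that for bHLH121 when any one of 10 was (0.0521 to 0.105). Groups of 3 arrays are too small for the test of single outlying arrays, which was not applied.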

How the results depend on the processing

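Of 396 counts recomputed under the alternatives, 370 stayed within 1.5 times the reported value, and no difference of a named gene that was called as reported changed sign. Some that were not called did, such as the fall difference of BZIP61 (-0.31 with dim signals raised to the floor) and the pulsed differences of AT5G16110 (0.07) and bHLH121 (0.05) without normalization. Without normalization 13 members were lower at night after the pulse, the difference between falls was called for 439 probe sets and for 9 members (9 positive, 0 negative), and the pulses changed 669 probe sets at night and 3721 in the day. With median centring 1 member was higher in night controls, and the difference between falls was called for 2728 probe sets and 31 members (29 positive). With array weights 11 members were higher at night after the pulse, the falls differed for 5308 probe sets and 33 members (28 positive, 5 negative), and 3513 probe sets changed at night. With a pseudocount of 16 the falls differed for 26 members (24 positive). Fitting only the groups compared left 3 members higher at night after the pulse. Leaving out day pulse 1 and day control 2 together, a choice made after seeing the data, gave 12. The causes were not tested.

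Leaving out 1 array at a time gave, in dark controls, 5531 to 7429 probe sets and 41 to 49 members called (2 to 4 higher, 38 to 46 lower at night). After the pulse it gave 3797 to 5227 probe sets and 23 to 36 members (4 to 12 higher, 19 to 26 lower). The difference between falls gave 1147 (without night control 3) to 2650 (without day control 1) probe sets and 13 to 21 members (11 to 18 positive, 2 to 4 negative, the 4 without day control 1). The night pulse gave 1105 (without night control 2) to 2295 probe sets and the day pulse 4728 to 6162, with 60 to 61 members each. The number of members ran from 55 to 67.

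With the replicate block 48 members were called in controls, 31 after the pulse and 21 between the falls, so it moved no count of members by over 1.5 times. Scaling moved all probe sets together. The median of all differences between dark controls was 0.02 as reported, 0.54 without normalization, -0.19 with median centring and 0.19 with trimmed-mean scaling, and the share of calls that were higher at night was 53.2%, 81.1%, 39.2% and 61.1%. The members' median was -1.76, -1.50, -2.23 and -1.86, below each of these. After the pulse the share was 53.7% as reported and 89.9% without normalization. For the falls the share of calls that were positive was 41.0%, and 74.7% with median centring and 28.2% with trimmed-mean scaling. For higher calls it was 47.1% at night, 63.8% without normalization, and 49.1% in the day, 33.9% with median centring. Without normalization the night against day calls in controls were lost for AT1G56220 (adjusted p = 0.129), AT3G19850 (0.243), AT5G60680 (0.137), AT5G16110 (0.109) and AT1G21830 (0.514), and those after the pulse for AT1G56220 (0.109) and AT1G21920 (0.126). In the rule, quantile-normalized signals gave 63 members (58 shared) and no scaling 52 (46 shared).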
